A study of Rattus norvegicus with 6 samples.

Results

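Cholinergic neurons of the rat nucleus accumbens shell were taken as the nuclei with at least 1 UMI (unique molecular identifier, 1 counted RNA molecule) of Chat, at least 1 of Slc5a7 and under 5 of Pde10a. Chat encodes choline acetyltransferase, which makes acetylcholine, Slc5a7 the transporter that takes up choline for it, and Pde10a a phosphodiesterase abundant in spiny projection neurons. The rule found 213 nuclei among 37456 kept nuclei (0.569%). Of 41974 deposited barcodes, those kept held a minimum of 500 UMIs and 300 genes, with mitochondrial genes at under 5% of their UMIs. Single-nucleus RNA-seq libraries came from 3 pools of female and 3 pools of male Long-Evans rats, 90 to 100 days of age, and the labels name no treatment, mutation or transgene for either sex. The rats had been weaned on day 22 and housed in same-sex pairs. Each library pooled frozen tissue of 4 rats, so the spread between libraries is the spread between pools, and single animals cannot be told apart within them.

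Cholinergic interneurons are the large, sparse and spontaneously active neurons of the striatum whose axons supply most of its acetylcholine. Their firing pauses at reward-related cues, and their acetylcholine acts on spiny neurons and on dopamine axons. In rodents they arise from progenitors that express Nkx2-1, keep the LIM homeodomain factors Lhx8 and Isl1, and many carry VGLUT3, the vesicular glutamate transporter encoded by Slc17a8. Cholinergic projection neurons of the neighbouring basal forebrain use the same enzymes and are known for the neurotrophin receptor encoded by Ngfr.

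One defining marker did not appear. Slc18a3, the gene of the vesicular acetylcholine transporter, had 0 UMIs in every set of nuclei in all 6 libraries. In the RefSeq annotation of rat build GRCr8, Slc18a3 lies inside the span of Chat on the same strand of chromosome 16, and its start lies 602 bases downstream of the start of Chat. The matrices were made on build rn6, and the part of this nesting in the count of 0 was not tested. The 250 bases before the start of both genes are shown because they belong to this nested locus, with those of Slc5a7 and of Slc10a4, which encodes a protein of cholinergic synaptic vesicles. All are from RefSeq and run 5′ to 3′ on the minus strand of GRCr8, at chr16:7723417-7723666 for Chat, chr16:7722815-7723064 for Slc18a3, chr9:7953510-7953759 for Slc5a7 and chr14:35557885-35558134 for Slc10a4. Capitals mark TAAT or its reverse complement ATTA, the core bound by homeodomain factors such as those of the LIM family.
Chat: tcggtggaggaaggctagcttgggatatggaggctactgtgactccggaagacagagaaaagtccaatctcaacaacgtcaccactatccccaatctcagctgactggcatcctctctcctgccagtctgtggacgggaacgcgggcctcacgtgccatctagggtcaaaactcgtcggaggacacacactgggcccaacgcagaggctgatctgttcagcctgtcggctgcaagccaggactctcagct
Slc18a3: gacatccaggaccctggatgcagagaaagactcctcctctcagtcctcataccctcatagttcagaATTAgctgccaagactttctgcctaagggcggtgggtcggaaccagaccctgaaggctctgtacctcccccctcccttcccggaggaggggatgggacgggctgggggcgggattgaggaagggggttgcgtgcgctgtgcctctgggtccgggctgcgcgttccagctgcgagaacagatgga
Slc5a7: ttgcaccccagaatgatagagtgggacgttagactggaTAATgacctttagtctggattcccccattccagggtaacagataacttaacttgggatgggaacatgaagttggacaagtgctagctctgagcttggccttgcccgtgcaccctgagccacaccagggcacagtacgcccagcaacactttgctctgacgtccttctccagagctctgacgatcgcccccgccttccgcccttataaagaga
Slc10a4: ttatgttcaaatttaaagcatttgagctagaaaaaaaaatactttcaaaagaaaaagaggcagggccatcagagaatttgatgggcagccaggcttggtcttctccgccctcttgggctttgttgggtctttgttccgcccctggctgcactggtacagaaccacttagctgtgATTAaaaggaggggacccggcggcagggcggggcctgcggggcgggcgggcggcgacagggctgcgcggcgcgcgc
The core occurred 0 times before Chat and 1 time before each of the other 3 genes, and 57.0% of all 33469 windows of this length hold it on either strand. The longer palindrome TAATTA, which contains the core and is present in 4.86% of windows, was found in 0 of the 4.

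The label was checked against Lhx8, a marker the rule did not use. It had at least 1 UMI in 181 of the 213 nuclei (85.0%), against 1.89% of 2382 oligodendrocyte nuclei, a cell type that should lack it. With every nucleus thinned to 2000 UMIs the shares were 53.2% of cholinergic and 1.68% of oligodendrocyte nuclei, and 10 cholinergic nuclei were too shallow to enter. Oligodendrocyte nuclei under 2000 UMIs were left out as well, and their median depth was below this in female 2 (1797 UMIs) and male 3 (1814 UMIs). Thinned oligodendrocyte shares, here and below, thus describe the deeper nuclei. Median depth per library was 6772 to 9028.5 UMIs in cholinergic, 1797 to 3161 in oligodendrocyte and 3114 to 5030 in all other nuclei. Chat had a median of 5 UMIs per cholinergic nucleus and Slc5a7 a median of 4, values that chose the nuclei and are given as a description. Of 2390 nuclei with oligodendrocyte markers, 8 (0.335%) met the rule and are among the 213.

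Just inside the limits, 14 nuclei (6.57%) had exactly 1 UMI of both Chat and Slc5a7, and 30 had 4 UMIs of Pde10a. Just outside, 15 nuclei with both markers had 5 UMIs of Pde10a, 235 nuclei had Chat alone and 534 had Slc5a7 alone. In all 123 nuclei with both markers were left out by Pde10a. Lhx8 was present in 105 of them (85.4%), 100 came from female 3 and male 1, and their median depth was 14186.5 to 18886 UMIs per library. Nuclei left out by this limit thus held Lhx8 in about the same share as those kept, and were deeper.

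Cholinergic nuclei were rare in every library. They made up 0.821% (26 of 3168), 0.383% (11 of 2873) and 0.594% (98 of 16504) of kept nuclei in female libraries 1 to 3. In male libraries 1 to 3 they made up 0.455% (40 of 8795), 0.419% (13 of 3101) and 0.829% (25 of 3015). The 95% Wilson intervals, which cover counting error only, reached from 0.214% to 1.22%. The mean share was 0.599% ± 0.219 in female and 0.568% ± 0.227 in male libraries (SD, n = 3 each), a difference of 0.0314 percentage points. A two-sided exact permutation test over libraries gave p = 1, where 0.1 is the smallest p that 3 against 3 allows. The sexes overlapped, and the highest library of each, female 1 and male 3, stood at almost the same share. Female minus male was 0.139 points within label set A and -0.0224 points within label set B, 2 sets of libraries that are defined by the wording of their labels (set A is female 3 and male 1).

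**Figure D1:**
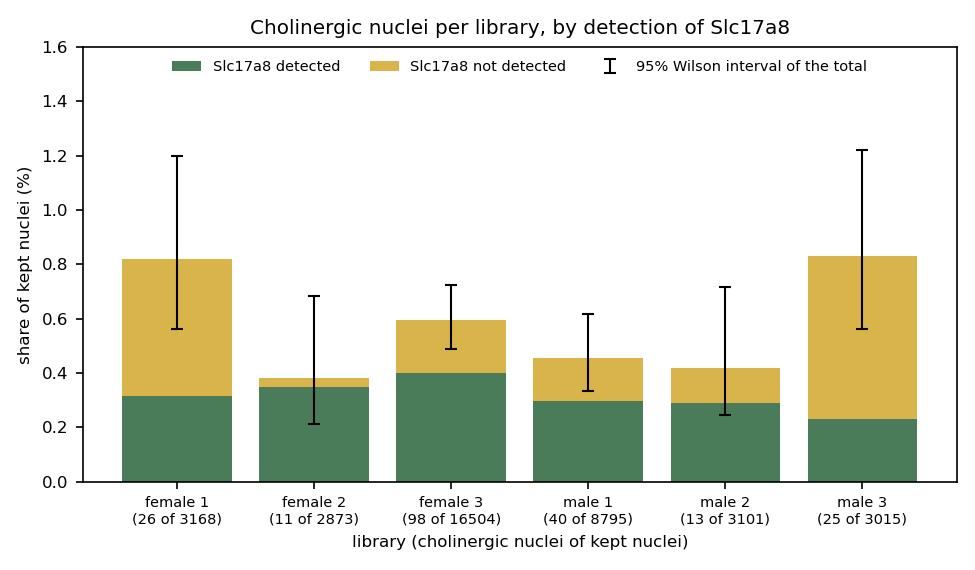
Share of kept nuclei (percent) that were cholinergic in each library, with the 95% Wilson interval of the total, divided by whether Slc17a8 was detected in the nucleus. The Slc17a8-detected part lies between 0.232% and 0.40% in all 6 libraries, and the undetected part spans 0.0348% to 0.597% and is tallest in female 1 and male 3.

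Summed over nuclei, cholinergic RNA amounted to 73581 (female 2) to 758281 UMIs (female 3) per library. Levels are CPM, the UMIs of a gene per 1000000 UMIs of the summed nuclei of 1 library, and are compared between nuclei and not between genes. Tests are edgeR's quasi-likelihood test with library as a block, and a call is a Benjamini-Hochberg adjusted p under 0.05 over all genes tested. Cholinergic nuclei were set against 2 kinds of neuron chosen after the data were seen and against all other kept nuclei. The 196 Sst/Nos1 nuclei, with at least 2 UMIs of both genes, are another kind of interneuron. The 458 Lhx8/Sema3c nuclei, with both genes and no Chat or Slc5a7, share Lhx8 with the cholinergic ones. Both kinds had the same Pde10a limit, and the genes that defined a set were not tested in it. The 3 comparisons share the cholinergic nuclei. A value with a standard error (SE) after a gene is a log2 fold change, and 3 values in a row are against Sst/Nos1, Lhx8/Sema3c and all other nuclei. In such sums, fewer cells of a type and less RNA per cell cannot be told apart.

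Against all other nuclei 3436 of 13670 genes were called (25.1%), 9.3% higher and 15.8% lower in cholinergic nuclei. Against Sst/Nos1 nuclei 23.3% of 3810 genes were called (10.8% higher and 12.4% lower), and against Lhx8/Sema3c nuclei 21.7% of 5757 (9.94% higher and 11.7% lower). The rule selects against the spiny gene Pde10a, so spiny genes lower in cholinergic nuclei are given as a description. With no limit on Pde10a, an alternative added after the data were seen, 13 of the genes named here were nearer no change by over 1.5-fold and still called lower than in all other nuclei, from Htr2c (log2 fold change -1.80) to Drd2 (-0.69). The others were Grm5, Pdyn, Htr4, Homer1, Penk, Oprk1, Gad1, Gria1, Grik2, Cacna1e and Nr3c2. Scaling by library totals in place of TMM (edgeR's trimmed mean of M-values) gave 1778 higher and 1808 lower, against 1271 higher and 2165 lower with TMM. The median log2 fold change over all genes was 0.04 with totals and -0.08 with TMM.

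Of 10 genes that make, move or clear acetylcholine, 3 of them markers that were not tested or had no UMI, 7 were tested against all other nuclei, 5 were higher and 1 lower (Slc44a1, a choline transporter), with a median log2 fold change of 2.54, where 9.3% of all genes were higher. Acly, which makes the cytosolic acetyl-CoA that Chat uses, had 521, 815 and 650.2 CPM in female libraries 1 to 3 and 724, 575 and 807 CPM in male libraries 1 to 3. Every one of these sums lay above every sum of the other 3 sets. The means were 682 ± 121 CPM in cholinergic, 47.5 ± 23.1 in Sst/Nos1, 46.1 ± 22.9 in Lhx8/Sema3c and 51.2 ± 11.2 CPM in all other nuclei (SD, n = 6 libraries). The log2 fold changes were 3.61 (SE 0.20), 3.61 (SE 0.15) and 3.56 (SE 0.13, adjusted p = 1.4e-26). Prima1 anchors acetylcholinesterase to neuronal membranes. It had 395, 625 and 421 CPM in female libraries and 535, 567 and 451 CPM in male libraries, against 7.23 to 24 CPM in all other nuclei (log2 fold change 4.69, SE 0.16, adjusted p = 8.0e-28). Prima1 was detected in 86.4% of cholinergic nuclei (51.7% thinned) and in 31.7% of oligodendrocyte ones (23.2% thinned).

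Ache, acetylcholinesterase itself, had 106, 190.3 and 100.2 CPM in female libraries and 136, 65.8 and 58.4 CPM in male libraries. It averaged 109 ± 48.7 CPM there, 45.6 ± 10.5 in Sst/Nos1, 46.7 ± 14.9 in Lhx8/Sema3c and 16.7 ± 3.76 CPM in all other nuclei, and was higher in each comparison (log2 fold changes 1.22, 1.21 and 2.54). Slc10a4 was higher than in all other nuclei by 5.61 (SE 0.37) on the log2 scale, from 54 UMIs. Bche, butyrylcholinesterase, was higher by 0.82 (SE 0.16), but its libraries ranged widely, with 212, 136 and 43.5 CPM in female libraries and 37.9, 329 and 101 CPM in male libraries. Slc44a1, a choline transporter found in many cell types, was lower (-0.47, SE 0.14). Colq, the collagen tail of acetylcholinesterase, had 9 UMIs and did not pass the test.

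**Figure D2:**
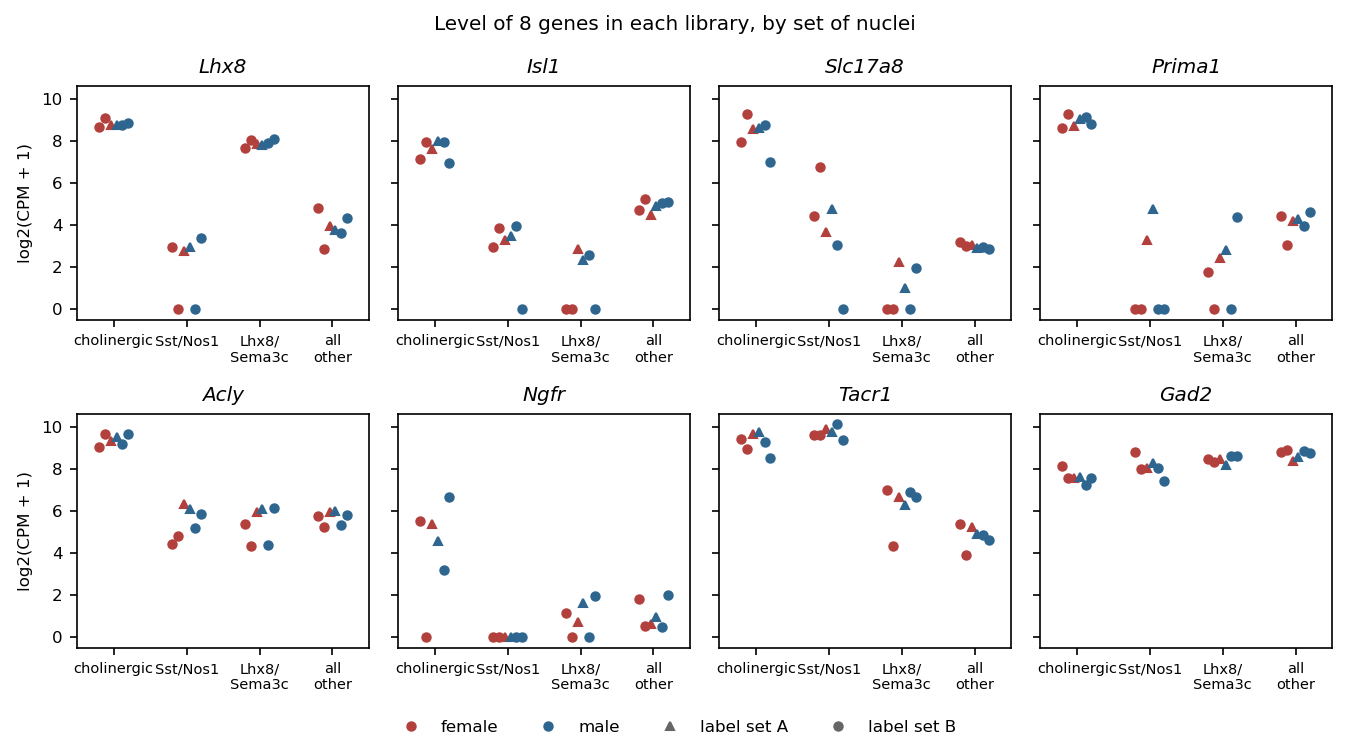
Level of 8 genes as log2(CPM + 1) in cholinergic, Sst/Nos1, Lhx8/Sema3c and all other nuclei, 1 point per library, coloured by sex and shaped by label set. Slc17a8, Prima1, Acly and Isl1 are high in all 6 cholinergic sums, Lhx8 is high also in Lhx8/Sema3c nuclei and Tacr1 also in Sst/Nos1 nuclei, and Ngfr is at 0 in the cholinergic nuclei of female 2.

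Of 18 transcription factors listed 13 were tested against all other nuclei, 6 were higher and 5 lower (over all genes 9.3% and 15.8%). Lhx8 had 415, 544 and 438 CPM in female libraries and 437, 436 and 462 CPM in male libraries, a narrow range. It averaged 455 ± 45.8 CPM in cholinergic nuclei, 4.79 ± 3.90 in Sst/Nos1, 239.6 ± 25.7 in Lhx8/Sema3c (where it was a criterion) and 15.3 ± 7.40 CPM in all other nuclei. The log2 fold change was 6.22 (SE 0.27, adjusted p = 1.8e-12) against Sst/Nos1 nuclei and 4.79 (SE 0.17, adjusted p = 1.3e-27) against all other nuclei. Isl1, which acts with Lhx8 in cholinergic fate in mouse, had 142, 245 and 195 CPM in female libraries and 260.0, 247 and 122 CPM in male libraries. Isl1 separated the 2 sets that share Lhx8, at 202 ± 58.6 CPM in cholinergic and 2.55 ± 2.88 CPM in Lhx8/Sema3c nuclei (log2 fold change 5.65, SE 0.28, adjusted p = 6.1e-12). The homeobox gene Gbx1 did the reverse, at 4.22 ± 4.57 CPM in cholinergic and 83.2 ± 10.6 CPM in Lhx8/Sema3c nuclei (-3.98, SE 0.33, adjusted p = 1.1e-08).

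The zinc-finger factors Zic1 (3.46, SE 0.33) and Zic4 (3.36, SE 0.27) and Nkx2-1 (3.59, SE 0.38), a regulator of ventral forebrain development, were higher than in all other nuclei, from 53, 97 and 40 UMIs. Zic4 had 44.8, 54.4 and 51.4 CPM in female libraries and 60.6, 74.0 and 53.1 CPM in male libraries, against 1.81 to 6.0 CPM in all other nuclei, without overlap. Lhx6, a factor of somatostatin and parvalbumin interneurons, averaged 29.6 ± 11.3 CPM in cholinergic, 113 in Sst/Nos1, 61.9 in Lhx8/Sema3c and 6.48 CPM in all other nuclei. It was lower than in both comparison sets (-1.92 and -1.11) and higher than in all other nuclei (1.96). Sox6, a factor of the same interneurons, averaged 72.7 ± 66.3 CPM in cholinergic against 3019.8 ± 478 CPM in Sst/Nos1 nuclei (-5.38, SE 0.27, adjusted p = 8.6e-12) and was lower than in Lhx8/Sema3c nuclei too (-3.19, SE 0.22).

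Of 8 genes of neurotrophin signalling 6 were tested against all other nuclei, 2 were higher and 2 lower (over all genes 9.3% and 15.8%). The median log2 fold change of those tested was -0.46, and Ngfr was among those higher. Ngfr, the low-affinity neurotrophin receptor, was uneven, with 44.8, 0 and 40.9 CPM in female libraries and 22.7, 8.22 and 101 CPM in male libraries, against 0.404 to 2.97 CPM in all other nuclei (log2 fold change 4.96, SE 0.35, adjusted p = 2.6e-16). Female 2 had none, which allows up to 40.8 CPM there (3 counts), the value of male 2 is 1 UMI, and male 3 had the most. Ngfr was detected in 18.3% of cholinergic and 0.840% of oligodendrocyte nuclei (9.36% of cholinergic and 0.581% of oligodendrocyte nuclei thinned).

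Of 9 genes of other transmitters 7 were tested against all other nuclei, and 2 were higher (Slc17a8 and Nos1, neuronal nitric oxide synthase). The other 5 were lower, where over all genes 9.3% were higher and 15.8% lower. Slc17a8 had 252, 625 and 385 CPM in female libraries and 399, 436 and 127 CPM in male libraries, against 6.20 to 8.13 CPM in all other nuclei (log2 fold change 5.49, SE 0.18, adjusted p = 6.4e-29). Male 3 was lowest and female 2 highest. Gad1, a GABA-synthesizing enzyme, had 122, 13.6 and 115 CPM in female libraries and 78.2, 49.3 and 74.3 CPM in male libraries. It averaged 75.4 ± 40.6 CPM in cholinergic nuclei, 416 ± 68.2 in Sst/Nos1, 399.8 ± 58.8 in Lhx8/Sema3c and 343 ± 30.4 CPM in all other nuclei (-2.32, -2.22 and -2.08). Thinned to 2000 UMIs, Gad1 was detected in 15.3% of cholinergic and 15.7% of oligodendrocyte nuclei. Unthinned, it was detected in 37.1% of cholinergic and 20.1% of oligodendrocyte nuclei. Whether these UMIs are background was not tested. Gad2, the other synthesizing enzyme, was detected in 29.6% of cholinergic and 22.5% of oligodendrocyte nuclei thinned, and in 64.8% of cholinergic and 28.3% of oligodendrocyte nuclei unthinned. It was lower than in all other nuclei (-1.16, SE 0.14). Against Sst/Nos1 nuclei its call (-0.54) was lost in 5 of 15 alternatives. Slc32a1, the vesicular GABA transporter, had 22 UMIs (-1.82, SE 0.30).

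The dopamine receptor genes that could be tested, 3 of 5, were lower than in all other nuclei, as were 15.8% of all genes. Spiny neurons, which carry these receptors, are the main neurons of the striatum. Drd2, known to slow the firing of cholinergic interneurons, had 91 UMIs, 12.2, 13.6 and 71.2 CPM in female libraries and 58.1, 49.3 and 21.2 CPM in male libraries (log2 fold change -1.92, SE 0.20, adjusted p = 5.4e-11). Without the Pde10a limit the value was -0.69 and still called. Drd3 was lower by less (-0.84, SE 0.21), a call lost without the Pde10a limit, where the value was -0.07. Drd1 had 1 UMI, and Drd4 and Drd5 had 0, which allows up to 1.68 CPM (3 counts over all cholinergic UMIs).

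Of 5 muscarinic receptors 3 were tested, 1 was higher and 1 lower (over all genes 9.3% and 15.8%). Chrm2, known as an inhibitory autoreceptor, was the higher one, with 24.4, 13.6 and 17.1 CPM in female libraries and 5.05, 8.22 and 10.6 CPM in male libraries against 0.723 to 2.85 CPM in all other nuclei (log2 fold change 2.90, SE 0.43, adjusted p = 4.0e-07). It rested on 25 UMIs. Chrm4 did not pass (-0.09, SE 0.23). Chrm5 was lower (-0.72, SE 0.24), but lost its call in 9 of 15 alternatives. Of 9 nicotinic subunits 3 were tested, 0 were higher and 1 lower. The lower one, Chrna5, had 2 UMIs, and Chrna7, with 130 UMIs, did not pass (0.15, SE 0.20).

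Of 8 genes of the opioid system 7 were tested against all other nuclei, 2 were higher and 3 lower (over all genes 9.3% and 15.8%). Oprm1, the mu receptor, had 281, 217 and 169 CPM in female libraries and 169, 238 and 133 CPM in male libraries. It averaged 201 ± 54.3 CPM in cholinergic nuclei, 49.0 ± 23.3 in Sst/Nos1, 56.4 ± 8.85 in Lhx8/Sema3c and 120.3 ± 43.2 CPM in all other nuclei. Each cholinergic sum lay above every sum of the first 2 sets, while the range of all other nuclei overlapped. The log2 fold changes were 2.0 (SE 0.22, adjusted p = 5.1e-07), 1.82 (SE 0.18, adjusted p = 1.5e-07) and 0.67 (SE 0.15, adjusted p = 0.00031). Oprd1, the delta receptor, averaged 91.7 ± 30.1 CPM and was higher than in Lhx8/Sema3c (3.05, SE 0.26, adjusted p = 1.4e-08) and all other nuclei (0.75, SE 0.19). The calls of Oprm1 and Oprd1 against all other nuclei were each lost in 1 of 15 alternatives, the fit with no library block. The kappa receptor gene Oprk1 (-2.44, SE 0.54) and the peptide genes Penk (-2.03, SE 0.19) and Pdyn (-2.16, SE 0.39), which spiny neurons express, were lower.

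Tacr1, the substance P receptor, had 688, 489 and 818 CPM in female libraries and 878, 616 and 366 CPM in male libraries, against 14.1 to 41.2 CPM in all other nuclei (log2 fold change 4.36, SE 0.14, adjusted p = 1.8e-28). Cholinergic nuclei averaged 643 ± 194 CPM and Sst/Nos1 nuclei 863 ± 158 CPM (log2 fold change -0.42, SE 0.14, adjusted p = 0.038), a call lost in 10 of 15 alternatives. Of 19 peptide and hormone receptors 11 were tested, 4 were higher and 3 lower (over all genes 9.3% and 15.8%). The others higher were Tacr3, the neurokinin B receptor (3.02, SE 0.27, and 2.08 with under 2 UMIs of Pde10a), Trhr, the receptor of thyrotropin-releasing hormone (2.47, SE 0.24), and Crhr1, that of corticotropin-releasing hormone (2.14, SE 0.23). Of 12 serotonin and adrenergic receptors 8 were tested, 1 was higher (Adra1b, 1.29, SE 0.34) and 4 lower. Htr2c had 69.2, 0 and 102 CPM in female libraries and 50.5, 8.22 and 15.9 CPM in male libraries, against 1583 ± 306 CPM in Sst/Nos1 nuclei (-4.89, SE 0.27, adjusted p = 2.4e-11) and 675 ± 68.8 CPM in all other nuclei (-3.74). Of 7 steroid receptors 6 were tested, 0 were higher and 3 lower, Nr3c2, the mineralocorticoid receptor, among them (-1.92, SE 0.15). Esr1, an estrogen receptor, did not pass (0.20, SE 0.19).

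**Figure D3:**
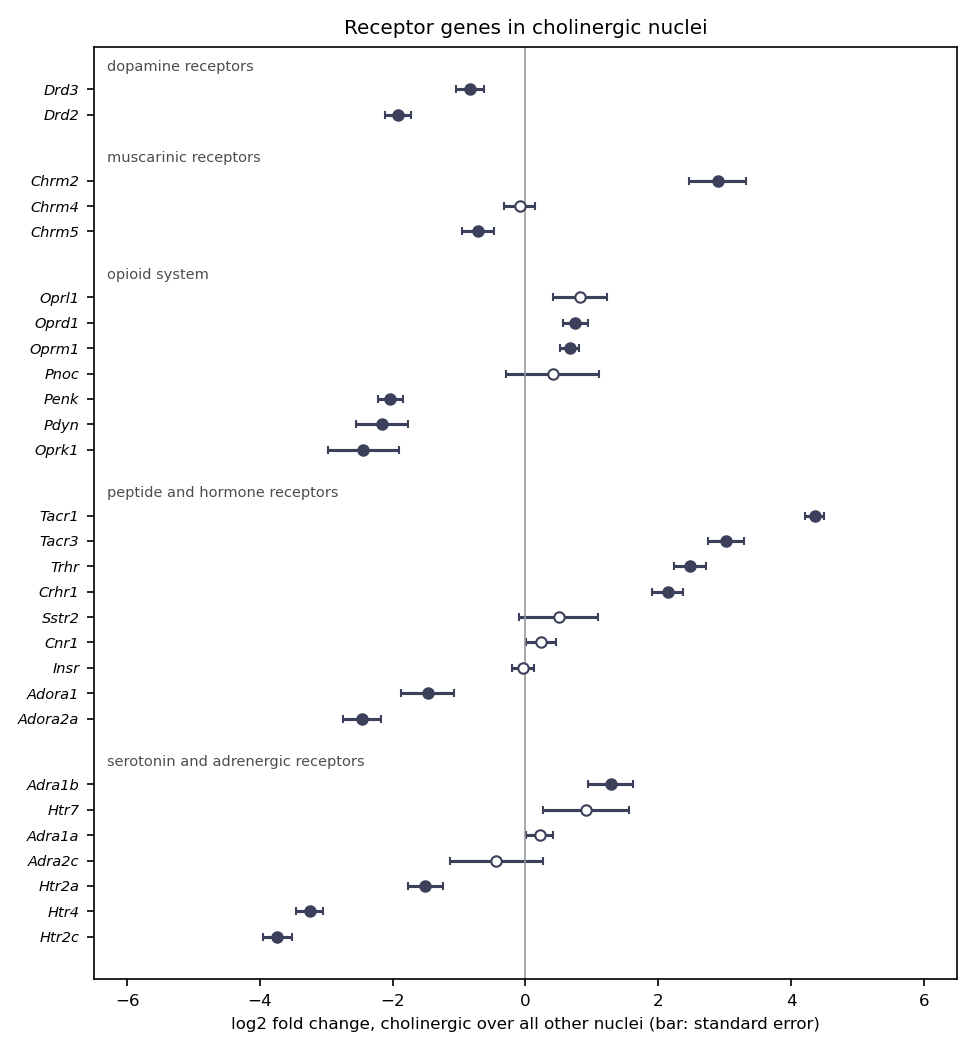
Log2 fold change of receptor and opioid peptide genes in cholinergic over all other nuclei, with its standard error, by list, for genes of the dopamine, muscarinic, opioid, peptide and hormone, and serotonin and adrenergic lists with over 3 UMIs in cholinergic nuclei. Filled points passed an adjusted p of 0.05 and open points did not: of the genes drawn, Tacr1, Tacr3 and Chrm2 lie furthest to the right, Htr2c and Htr4 furthest to the left.

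Channels were called in both directions. Of 24 pacemaking and potassium channel genes 22 were tested, 8 were higher and 9 lower (over all genes 9.3% and 15.8%). Among the hyperpolarization-activated channels, which support pacemaking, Hcn4 (3.05, SE 0.36) and Hcn3 (1.25, SE 0.28) were higher. Hcn4 had 20.3, 40.8 and 31.7 CPM in female libraries and 27.8, 41.1 and 10.6 CPM in male libraries, against 1.27 to 4.16 CPM in all other nuclei. Kcnc2, a fast delayed rectifier, was higher than in all other nuclei (2.19, SE 0.13). Kcnj3, a channel opened through Gi-coupled receptors, was higher than in Sst/Nos1 (1.44, SE 0.25) and Lhx8/Sema3c nuclei (1.01, SE 0.13). Nalcn, the sodium leak channel, did not pass in any of the 3 comparisons (0.14, -0.03 and 0.07). Of 14 sodium and calcium channel genes 14 were tested, 3 were higher and 7 lower. Cacna1b, the N-type channel of transmitter release, was higher in each comparison (0.98, 0.85 and 1.24), and Cacna1e was lower than in all other nuclei (-1.81, SE 0.15).

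More glutamate receptors were called lower than higher in each comparison. Of 21 genes 20 were tested against all other nuclei, 5 were higher and 12 lower (over all genes 9.3% and 15.8%). Against Sst/Nos1 nuclei 0 of 17 were higher and 7 lower (over all genes 10.8% and 12.4%). Against Lhx8/Sema3c nuclei 4 of 17 were higher and 9 lower (over all genes 9.94% and 11.7%). Higher than in all other nuclei were the NMDA subunits Grin2d (2.07, SE 0.34) and Grin3a (1.59, SE 0.15), the kainate subunit Grik1 (0.86, SE 0.15) and the metabotropic receptor Grm2, which had 20.3, 122 and 33.0 CPM in female libraries and 35.3, 16.4 and 10.6 CPM in male libraries (3.68, SE 0.40, adjusted p = 1.8e-10). Lower were Grm5 (-2.82, SE 0.16), Grik2 (-2.01, SE 0.18), Gria1 (-1.85, SE 0.15) and Gria2 (-1.60, SE 0.13). Of 12 GABA-A subunits 12 were tested, 2 were higher and 6 lower than in all other nuclei. Against Sst/Nos1 nuclei 4 of 9 were higher and 2 lower, with Gabrg3 at 1.41 (SE 0.20) and Gabrb2 at 1.35 (SE 0.16). Gabrb2 was lower than in Lhx8/Sema3c nuclei (-1.34, SE 0.18).

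Of 24 adhesion and matrix genes 21 were tested, 4 were higher and 10 lower than in all other nuclei (over all genes 9.3% and 15.8%). Cdh13, T-cadherin, had 2441, 2854 and 2319.7 CPM in female libraries and 2726, 2441 and 1747 CPM in male libraries. It averaged 2422 ± 386 CPM in cholinergic nuclei, 624 ± 97.2 in Sst/Nos1, 762 ± 118 in Lhx8/Sema3c and 323 ± 79.6 CPM in all other nuclei, with no overlap (1.94, 1.64 and 2.77). The others higher were Cntnap4 (1.23, SE 0.14), Reln (1.58, SE 0.20) and Nrg1 (0.58, SE 0.17), whose call was lost in 3 of 15 alternatives. Of 10 immediate early genes 9 were tested, 0 were higher and 7 lower (over all genes 9.3% and 15.8%), with Homer1 at -2.45 (SE 0.17). Of 6 neurofilament and axon genes 5 were tested, 2 were higher, Map1b among them (0.97, SE 0.12), and 2 lower. Against Lhx8/Sema3c nuclei the neurofilament genes Nefh (-2.49, SE 0.28), Nefm (-2.38, SE 0.31) and Nefl (-1.67, SE 0.23) were lower. Of 10 sex-linked genes tested against all other nuclei 0 were higher and 0 lower by edgeR.

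The genes with a detection pattern most like that of Chat were ranked by the share of cholinergic nuclei with a UMI over that of the 37243 other kept nuclei, among genes with at least 20 UMIs, as a description. Insrr, an orphan relative of the insulin receptor, was found in 49.8% of cholinergic and 0.424% of other nuclei, a ratio of 117, with 106, 109 and 104 CPM in female libraries and 111, 132 and 143 CPM in male libraries. Slc10a4 had a ratio of 76.3 and Zar1 of 51.2. Others among the highest were Tal2, Ngfr, LOC103693984, Ecel1, Slc17a4 and Ret, at ratios of 50.0 to 34.3. Slc10a4 and Zar1 are neighbours on chromosome 14 of GRCr8, 413 bases apart. Counts of neighbours this close are uncertain, since reads could be split between them, and those of Insrr are uncertain for the same reason. Ecel1, a membrane endopeptidase relative, was higher than in all other nuclei by 5.69 (SE 0.18) and Rxfp2, a relaxin family receptor, by 5.80 (SE 0.23) on the log2 scale.

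The 213 nuclei differed among themselves in Slc17a8. It was detected in 128 (60.1%) and undetected in 85. By library it was detected in 10 of 26, 10 of 11 and 66 of 98 female nuclei and in 26 of 40, 9 of 13 and 7 of 25 male nuclei. Detected nuclei were 0.232% to 0.40% of kept nuclei and undetected ones 0.0348% to 0.597%. Female 1 and male 3, where undetected nuclei were most frequent (0.505% and 0.597% of kept nuclei), also had the highest shares of Lhx8/Sema3c nuclei (2.24% and 1.53%), and female 2 had the lowest of both (0.0348% and 0.278%). The division was chosen after its values were seen and is described without a test. Detected nuclei were deeper, with a median of 8503.5 UMIs against 6482 in undetected ones.

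Other genes differed along the same division. The values are from the 4 libraries with at least 5 nuclei on each side (female 1, female 3, male 1 and male 3), for genes with at least 100 UMIs that differed in the same direction in all of them. Sfmbt2, a Polycomb-group gene, had 475, 467, 459 and 316 CPM in Slc17a8-detected and 37.8, 26.7, 25.6 and 7.62 CPM in undetected nuclei, without overlap. Bche, of the acetylcholine list, averaged 207 CPM in Slc17a8-detected and 17.3 CPM in undetected nuclei. Cpne4, a copine, averaged 1468 CPM in Slc17a8-detected and 129.7 CPM in undetected nuclei. Il1rapl2, a synaptic adhesion gene, averaged 4074 CPM in detected and 404 CPM in undetected nuclei, and Gpc6, a glypican, 3793 CPM in detected and 492 CPM in undetected nuclei. Tshz3, a zinc-finger factor, averaged 380.2 CPM in detected and 48.7 CPM in undetected nuclei, and Cd44, a hyaluronan receptor, 171 CPM in detected and 15.1 CPM in undetected nuclei. Lower in Slc17a8-detected nuclei were Cntn3, a contactin (36.1 CPM in detected and 228 CPM in undetected nuclei), Kcnh7, a potassium channel (89.5 CPM in detected and 404 CPM in undetected nuclei), and Reln (84.6 CPM in detected and 303 CPM in undetected nuclei).

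**Figure D4:**
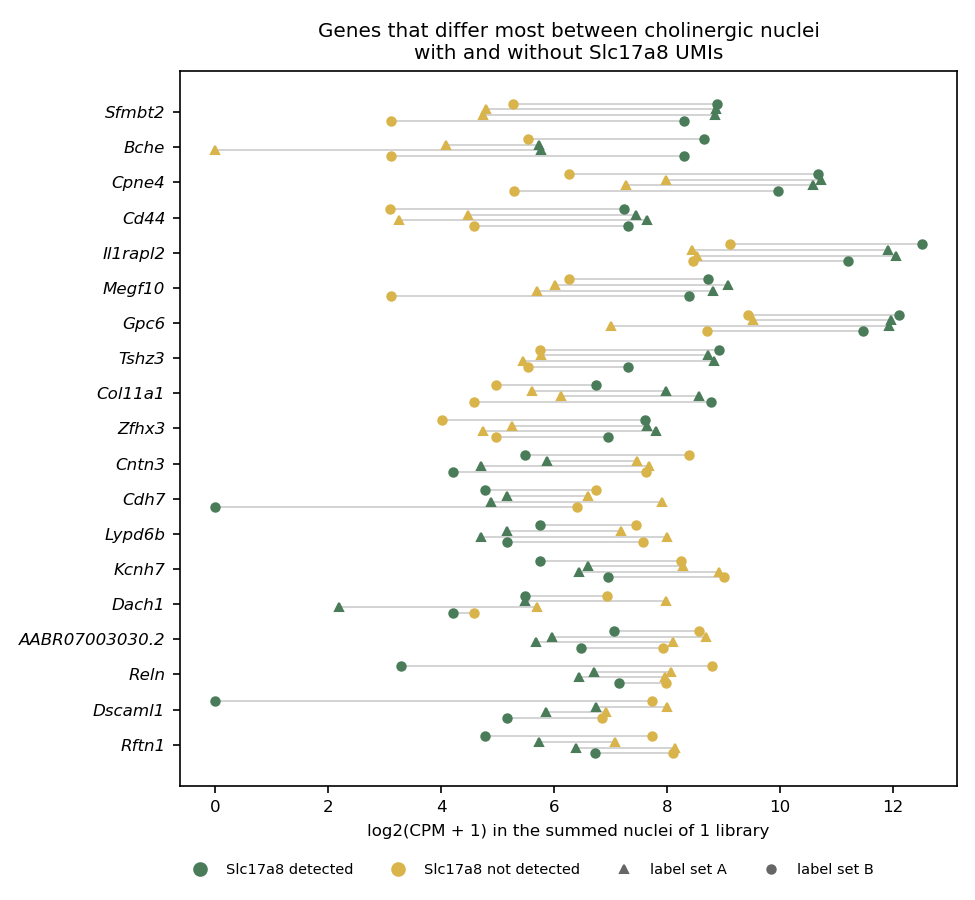
Genes among those furthest higher (top) and furthest lower (bottom) in Slc17a8-detected than in undetected cholinergic nuclei, as log2(CPM + 1) of the summed nuclei, with a line joining both values of each of 4 libraries (female 1, female 3, male 1 and male 3 from top to bottom within a gene). All lines of a gene point one way because that was a criterion, and no test was made.

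Ngfr and the LIM factors divided unevenly. Ngfr was detected in 11 of 128 Slc17a8-detected (8.59%) and 28 of 85 undetected nuclei (32.9%). Among nuclei of at least 5000 UMIs the share was 9.57% of Slc17a8-detected and 37.5% of undetected nuclei. Isl1 was in 81.2% of detected and 44.7% of undetected nuclei, and Lhx8 in 95.3% of detected and 69.4% of undetected nuclei. These shares of Isl1 and Lhx8 are over nuclei of any depth, and Slc17a8-detected nuclei were deeper. The part of depth in them was not tested. Chat had a median of 5 UMIs in detected and 3 in undetected nuclei. Ngfr and Gal, listed as markers of basal forebrain projection neurons, summed to 0 to 101 CPM per library in cholinergic and 0.404 to 3.93 CPM in all other nuclei, highest in male 3, and Gal had 1 UMI in cholinergic nuclei.

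Lhx6 gave another division. It overlaps the division by Slc17a8. Of 45 nuclei with Lhx6, 33 had Slc17a8, and of those without Lhx6, 95 had it and 73 did not. Nuclei thinned to 2000 UMIs left enough of both kinds in 1 library only, so unthinned sums of female 1, female 3 and male 1 were compared, a choice made after the data were seen, and Lhx6-detected nuclei were the deeper in each. Of 3668 genes 39 were called (1.06%), 0.463% higher and 0.6% lower. Reln, a secreted matrix protein, had 57.7, 11.3 and 20.1 CPM in Lhx6-detected and 381, 184 and 172 CPM in Lhx6-undetected nuclei of these libraries (log2 fold change -3.16, SE 0.37, adjusted p = 2.1e-09). Kcnh7 (-1.82, SE 0.30), Plcb1, a phospholipase (-1.66, SE 0.28), and Zfp521, a zinc-finger factor (-1.32, SE 0.21), were also lower. Reln and Kcnh7 were lower in Slc17a8-detected nuclei as well, and the Lhx6 and Slc17a8 divisions were not told apart here. The count of genes called between Lhx6-detected and undetected nuclei was 4 by DESeq2 and 8 without nuclei rich in markers of another class. By edgeR it was 0 both with under 2 UMIs of Pde10a and with no limit on it, where 92 and 387 genes had an unadjusted p under 0.05. It was 20 without male 1.

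Between the sexes, cholinergic nuclei differed in 2 Y-linked genes, in Ddx3 and in 3 features named only by a clone or locus. The test had sex and label set as terms. Of 4758 genes 6 were called (0.126%), 0.042% higher and 0.0841% lower in females, and 130 had an unadjusted p under 0.05. Eif2s3y, on the Y chromosome, had 0, 0 and 0 CPM in female libraries and 65.6, 82.2 and 117 CPM in male libraries, at least 29.5-fold lower in females (3 counts over the group as the floor, adjusted p = 0.0026). Kdm5d, also Y-linked, had 12.2, 0 and 0 CPM in female libraries and 114, 156 and 112 CPM in male libraries, a ratio of male to female of 43.2 (95% counting interval 14.3 to 214). Ddx3, a symbol that the RefSeq table gives both to a gene and as an older name of a Y-linked one, had 8.14, 0 and 0 CPM in female libraries and 95.9, 123 and 69.0 CPM in male libraries. AC241873.1 was likewise lower in females, with 8.14, 13.6 and 5.28 CPM in female libraries and 379, 312 and 175 CPM in male libraries. Higher in females were AABR07039356.2, at 159, 190.3 and 343 CPM in female libraries and 0, 0 and 0 CPM in male libraries (at least 68.4-fold), and LOC680227, at 3491, 869.8 and 313 CPM in female libraries and 2.52, 0 and 0 CPM in male libraries. All 6 separated the sexes without overlap, but they were chosen by their calls, so this is a description. The share of all 4758 genes without overlap was not counted.

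Outside the sex-linked list, 0 of 107 entries tested from the other 18 lists were called between the sexes by edgeR. Among all 4758 genes tested the share called was 0.126%, so 0 of 107 is near the share of all genes. Lhx8 averaged 465 ± 68.6 CPM in female and 445 ± 14.9 CPM in male cholinergic nuclei, and Oprm1 222 ± 56.1 CPM in female and 180.1 ± 53.6 CPM in male ones (SD, n = 3 each). Kdm6a, an X-linked gene, had 358, 339.8 and 314 CPM in female libraries and 217, 271 and 154 CPM in male libraries, and did not pass (0.65, SE 0.25). Without female 3 or without male 1, 0 genes were called by edgeR (154 and 149 at an unadjusted p under 0.05). Either omission leaves label set A a single library, which the label set term fits, so sex then rests on set B alone. Without female 2 the count was 11. Without a label set term it was 2.

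**Figure D5:**
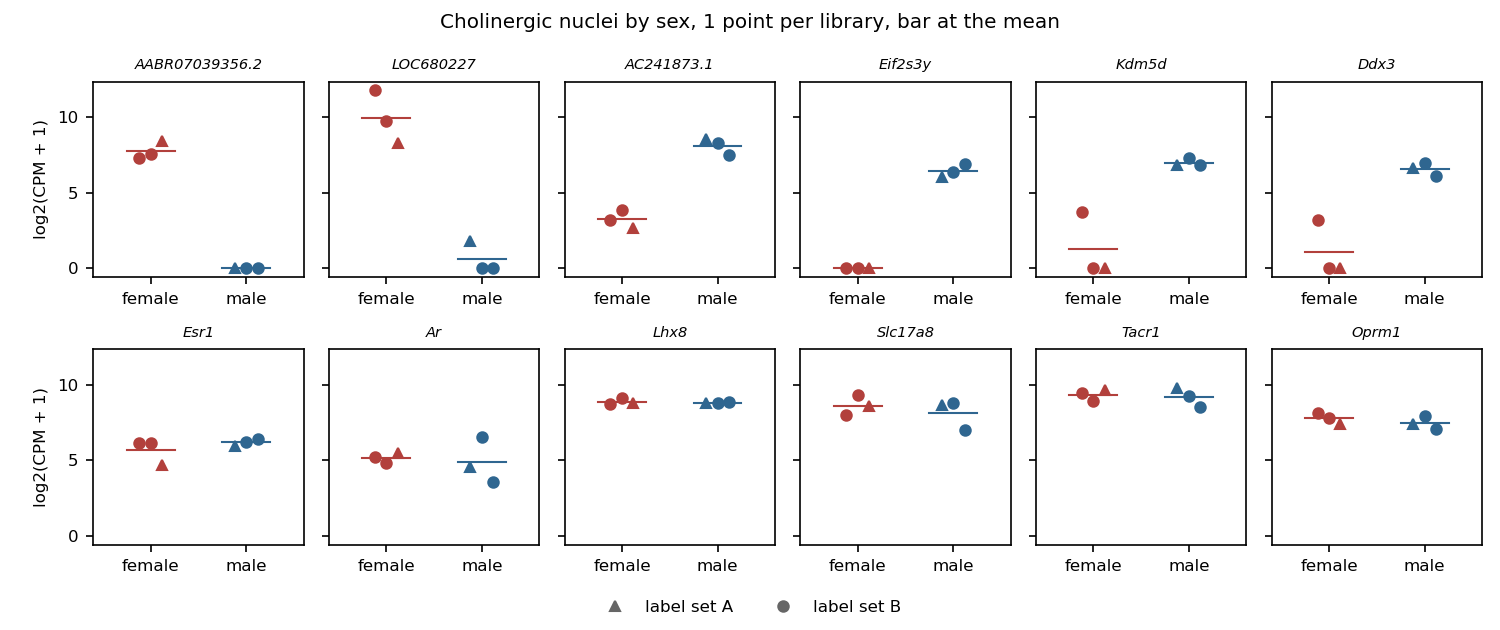
Level of the 6 genes called between the sexes (top) and of 6 other genes (bottom) in cholinergic nuclei as log2(CPM + 1), females left and males right, 1 point per library shaped by label set, with a bar at the mean. The genes on top, chosen by their calls, separate the sexes without overlap, and the genes below overlap.

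Label set A (female 3 and male 1) and label set B (the other 4 libraries) differ in how the labels word the library and its files, and no source used here says what this stands for. Between them 233 of 5480 genes were called in cholinergic nuclei (4.25%), 0.164% higher and 4.09% lower in set A. Slc24a5, a cation exchanger, had 7.91 and 17.7 CPM in set A and 159, 81.5, 288 and 260.2 CPM in set B (log2 fold change -4.06, SE 0.38, adjusted p = 0.00018). Usp1, a deubiquitinase, had 17.1 and 17.7 CPM in set A and 187, 109, 181 and 112 CPM in set B. Bche, of the acetylcholine list, was lower in set A (-2.33, SE 0.42), at -3.63 with under 2 UMIs of Pde10a and not called without female 3 or without male 1. Meis2 (3.26, SE 0.54), Ebf1 (3.68, SE 0.55) and Foxp2 (2.47, SE 0.47), factors known from spiny neurons, were higher. Without female 3 none of the 3 was called by edgeR, at 1.85 for Meis2 (adjusted p = 0.801), 3.76 for Ebf1 (adjusted p = 0.240) and 1.20 for Foxp2 (adjusted p = 0.922). The call was also lost without male 1 for Ebf1, without female 1 for Foxp2 and with no limit on Pde10a for Meis2 (1.92), where Ebf1 was at 1.83 and called. Without male 1 Meis2 was at 4.59 and Foxp2 at 3.68, without male 2 Meis2 at 4.05, and without male 3 Foxp2 at 3.07, all called. Meis2 had 243 and 78.2 CPM in set A and 12.2, 0, 32.9 and 10.6 CPM in set B, against 883 to 1704 CPM in all other nuclei. The 6 listed spiny markers summed to 381 and 321 CPM in cholinergic nuclei of set A and 305, 190.3, 321 and 361 CPM in set B. These markers include Pde10a, which the rule limits, and their part in these calls was not tested. Set A libraries held 16504 and 8795 kept nuclei, set B libraries 2873 to 3168. With female 3 or male 1 left out, set A is a single library, so such a fit rests on that library for set A. The count was 1 without female 3, 30 without male 1, 112 without female 1 and 390 without female 2.

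Markers of other cell types were present in the cholinergic sums. Spiny markers summed to 190.3 to 381 CPM per library in cholinergic and 1863 to 3098 CPM in all other nuclei. Pde10a, which the rule limits, is among the listed spiny markers, so their sums and counts in cholinergic nuclei are partly set by the rule. Oligodendrocyte markers summed to 123 to 648 CPM in cholinergic and 563 to 1642 CPM in all other nuclei, and astrocyte markers to 8.22 to 85.7 CPM in cholinergic and 204 to 300.1 CPM in all other nuclei. At least 5 UMIs of the list were found in 44 cholinergic nuclei for spiny, 24 for oligodendrocyte and 8 for astrocyte markers. Without nuclei rich in glial, vascular or cortical markers, the log2 fold changes against all other nuclei were 4.77 for Lhx8, 5.44 for Slc17a8, 4.40 for Tacr1 and 4.69 for Prima1, all called. Pairs of libraries shared 0 to 51 barcodes, and 4 barcodes of cholinergic nuclei also occurred among kept nuclei of another library.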

How the data were processed

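The authors deposited raw UMI counts per gene and nucleus for 6 libraries, made with Cell Ranger 4.0.0, per the file headers, on build rn6, per the submitters' processing notes. The libraries came from a droplet kit that reads the 3' ends of transcripts, with 11 cycles of cDNA amplification per the labels' protocols. Kept nuclei gave 11131483 to 108800959 UMIs per library. Counts were summed over the nuclei of a set in each library and tested as deposited with edgeR 4.0.16 in R 4.3.3 (TMM, filterByExpr, quasi-likelihood test, Benjamini-Hochberg adjustment), with library as a block, or with sex and label set as terms. A set with fewer than 5 nuclei in a library left that library out. DESeq2 1.42.0, library totals, no filter, other limits on Pde10a, Chat plus Slc5a7 and UMIs, no block, and each library left out were alternatives. The fit was tested on simulated data. Shares were compared with an exact permutation test in scipy 1.17.1. Thinning drew 2000 UMIs per nucleus. Libraries of the same sex differed by more than sampling noise (chi-square per degree of freedom at least 27.4). With library as a block, p-values measure how far the difference between sets of nuclei varies between libraries. In the tests of sex and label set they measure the spread between pools left after both terms.

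The members and gene lists were chosen with earlier results of these data known. Named genes are those of the lists, the 10 with the smallest p in each direction among those called in the same direction in every library, and the 10 most like Chat in detection. Genes of the Slc17a8 division were taken from the largest ratios of mean CPM. A few named genes are not reported here. No doublet caller was run. Instead, nuclei with at least 5 UMIs of glial, vascular or cortical markers were left out in an alternative. The comparison sets first planned, by Sst with Npy and by Pvalb with Pthlh, found 2 and 0 nuclei and were replaced after the data were seen. Of the symbols listed, Kcnd2, Nrg3, Cntnap5a, Tenm1, Uty, Xist and Pthlh had no match among the 32883 features and were not analysed here. Levels in CPM were computed here from the deposited counts. Promoter windows and gene neighbours came from RefSeq tables of GRCr8, a build other than that of the counts, and no coordinate was carried between them.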

Additional observations from a re-analysis of the deposited data

How the results depend on the processing

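For the share of cholinergic nuclei, female minus male took the opposite sign without female 1 (-0.0794 percentage points), without male 1 (-0.0251) and without male 2 (-0.0429), and ranged from -0.0794 to 0.162 with 1 library left out. The number of genes called between the sexes was 15 with no filter, 3 with under 2 UMIs of Pde10a, 2 without a label set term, and 0 to 11 with 1 library left out. Deviations of same-numbered libraries from their sex mean had correlations of -0.399, 0.159 and -0.244 over 4758 genes (numbers 1 to 3). These had no label set term, and under numbers 1 and 3 a library of set A meets one of set B. They therefore cannot decide whether the numbers pair the libraries. A replicate block in place of label set gave 2 calls and one with label set 6. Between the label sets the count was 148 with under 2 UMIs of Pde10a, 678 with no limit on it (added after seeing the data), and 1 to 390 with 1 library left out. Against Sst/Nos1 nuclei it was 1348 with no filter, 568 with no library block and 679 to 951 with 1 library left out. Against Lhx8/Sema3c nuclei it was 720 with no library block and 867 to 1300 with 1 library left out, and against all other nuclei 2922 to 3382. For Lhx6-detected nuclei the count was 4 by DESeq2, 8 without nuclei rich in other markers, 0 by edgeR with under 2 UMIs of Pde10a or no limit (92 and 387 at an unadjusted p under 0.05), and 20 to 34 with 1 library left out. There Kcnh7 changed sign with under 2 UMIs of Pde10a (log2 fold change 0.33). The cause was not tested for any of these. Over 147 pairs of a gene and a comparison, 2089 of 2171 values kept direction and side of the threshold, 79 lost the call, 2 gained it (Esr1 and Scn2a) and 1 reversed. Alternatives with the planned comparison sets and with thinned Lhx6 sums were not run, for lack of nuclei. Depth limits genes with few UMIs.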
